A study of Arabidopsis thaliana with 11 samples.

Results

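Transcripts of RALF-like (RALFL) signalling peptides were measured in leaf, flower and stem of Arabidopsis thaliana on Affymetrix ATH1 arrays, on which each probe set gives 1 hybridisation signal. The RALFL genes described here were selected on their measured signal: the probe set had to carry a single RALFL symbol and lie above a signal of 28.1 on at least 3 of the 11 arrays, whatever the tissue. Of 11 probe sets with a RALFL symbol, 8 met this rule (RALFL22, RALFL24, RALFL25, RALFL26, RALFL31, RALFL32, RALFL33 and RALFL34), among 15718 of the array's 22810 probe sets that did. A further 3 (RALFL18, RALFL27 and RALFL28) did not. All plants were of the Columbia-0 accession, with a photoperiod of 16 h, light of 125 umol per square metre and second, 25 C days and 20 C nights. Rosette leaves came from plants 15 days old (3 arrays), and open flowers together with buds (4 arrays) and the top 2 inches of stem, stripped of siliques and pedicels (4 arrays), came from plants 29 days old, so leaf differed from the other tissues in age as well. Array titles carried a code, GC (1 leaf, 2 flower and 2 stem arrays) or GH (2 of each tissue), whose meaning the labels did not settle: the leaf GH arrays were described as greenhouse material and every other array as grown in a controlled system. By these descriptions, leaf also differed from flower and stem in growth setting, on its GH arrays. Whether replicate arrays came from separate plants was not stated, so p-values here reflect no more than how far these samples differ from one another, and that spread may be technical.

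RALF peptides are small, cysteine-rich secreted proteins, many of them cut from a longer precursor, that were first recognised by their ability to raise the pH outside plant cells. They are perceived at the cell surface by receptor kinases of the CrRLK1L family, of which FERONIA is the best studied, together with small GPI-anchored co-receptors, and they also bind leucine-rich repeat extensins in the cell wall. In vegetative tissue this system tunes cell expansion and immune signalling, and in pollen a related set of peptides and receptors maintains the integrity of the growing tube.

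Array quality differed between tissues. The mean log2 ratio of 3' over 5' control signals, a measure of RNA integrity, lay between -0.24 and 0.09 on leaf arrays, between 0.53 and 0.90 on flower arrays and between 0.01 and 0.24 on 3 stem arrays, but 2.13 on the array of stem GH replicate 1, whose actin ratio was 19.65 against 0.781 to 2.91 elsewhere. Signals are the deposited ones, and RALFL genes were compared between arrays within a probe set and not with one another, since probe sets differ in how strongly they bind. Summed signals of marker genes, given below for each tissue, are weighted toward the brighter probe sets for the same reason. In whole organs, a lower signal from fewer cells of a type and from less RNA in each cell cannot be told apart. The median log2 difference over all 15718 probe sets was 0.16 for flower minus leaf, 0.17 for flower minus stem and -0.07 for stem minus leaf, and quantile normalization moved the flower medians to -0.002 and -0.01.

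RALFL25 and RALFL26 gave signal above 28.1 in flower alone. Both are counted among the RALF peptides of pollen, and in the RefSeq gene table of assembly TAIR10.1 they lie on chromosome 3 with 1 gene between them. RALFL25 (AT3G25165) had signals of 245, 404, 218 and 232 in flower (GC 1, GC 2, GH 1, GH 2), of 11.0, 3.84 and 12.6 in leaf (GC 1, GH 1, GH 2) and of 9.73, 19.0, 11.0 and 6.39 in stem. Every flower array stood far above every leaf and stem array, and leaf and stem arrays overlapped. Its flower mean was 275 ± 86.7 (SD, n = 4). By geometric means, flower was at least 9.47-fold higher than leaf and than stem. This bound was set against the limit of 28.1 because no leaf or stem array reached it. The adjusted p was 5.17e-06 against leaf and 5.09e-06 against stem.

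RALFL26 (AT3G25170) had signals of 175, 243, 239 and 138 in flower, of 10.5, 13.3 and 6.99 in leaf, and of 2.68, 1.40, 4.32 and 2.80 in stem. The 3 tissues did not overlap, but leaf and stem both lay under the limit on every array. The flower mean was 199 ± 50.8 (SD, n = 4). By geometric means, flower was at least 6.89-fold higher than either other tissue, with an adjusted p of 2.72e-05 against leaf and 1.15e-06 against stem. The fit also put stem below leaf (log2 difference -1.90 ± 0.47 SE, adjusted p = 0.00691), a difference between values that are both under the limit, and with values floored at the limit it was -0.011 (adjusted p = 0.982). RALFL25 and RALFL26 met the selection rule through their 4 flower arrays alone, so a difference between flower and the other tissues followed from the rule. Over all probe sets, 2.67% were above the limit on every flower array and under it on every leaf and stem array.

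Anther and pollen markers were read beside these genes. Their summed signal over 5 measured genes of 8 listed was 1710 to 1886 in flower, 172 to 234 in leaf and 650 to 983 in stem. ATA27, PLIM2a and AtVEX1 were under the limit on every leaf and stem array, as RALFL25 and RALFL26 were. They too met the filter through the 4 flower arrays alone, so their flower difference followed from it. The other measured markers differed. PLIM2b was above the limit on 10 arrays, with means of 33.9 in leaf, 85.0 in flower and 51.8 in stem. The actin gene ACT11 was highest in stem (674 ± 143, SD, n = 4) and, at 575 to 885 there, made up most of the stem sum. The part of pollen or anther content in the RALFL25 and RALFL26 signals was not tested.

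**Figure D1:**
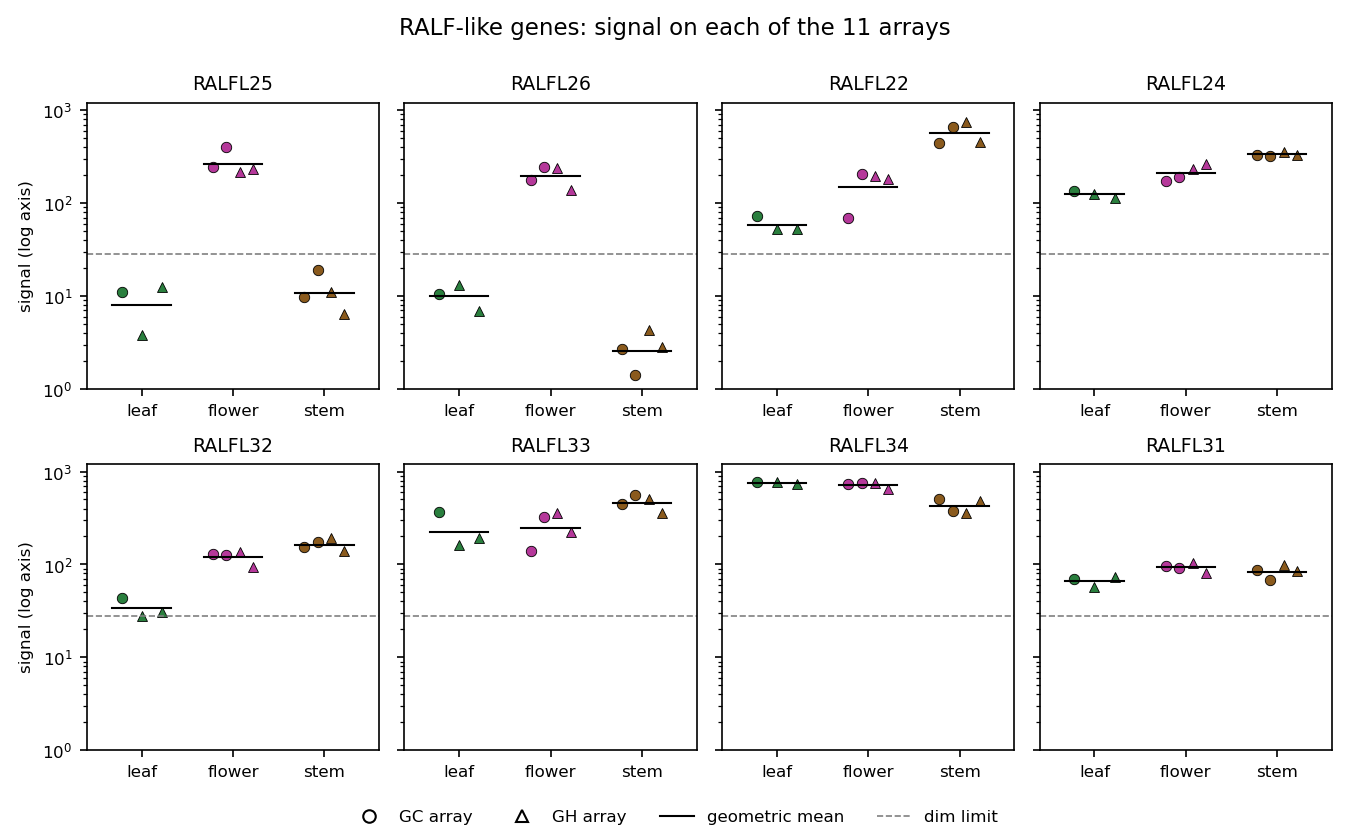
Deposited signal (log axis) of the 8 RALFL probe sets on each of the 11 arrays, 1 panel per gene, with points by tissue and code, a bar at each tissue's geometric mean and a dashed line at the limit of 28.1. RALFL25 and RALFL26 pass the limit on the 4 flower arrays only, RALFL22, RALFL24 and RALFL32 are highest on the 4 stem arrays, and RALFL34 is lowest there.

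RALFL22, RALFL24 and RALFL32 had their highest mean in stem and their lowest in leaf, and stem and flower passed the test against leaf for each. RALFL22 (AT3G05490) encodes one of the peptides that bind FERONIA. Its signals were 446, 666, 752 and 456 in stem (GC 1, GC 2, GH 1, GH 2), 70.0, 205, 197 and 183 in flower, and 71.9, 53.3 and 52.9 in leaf (GC 1, GH 1, GH 2). Every stem array was above every other array, and the flower array GC 1 fell inside the leaf range while the other 3 flower arrays were above it. Stem averaged 580.1 ± 153 (SD, n = 4) against 59.4 ± 10.9 in leaf (n = 3), a log2 difference of 3.30 ± 0.35 (SE, adjusted p = 2.73e-05). Flower (164 ± 63.2, n = 4) was below stem by a log2 difference of -1.91 ± 0.32 (adjusted p = 0.000657). Flower was above leaf by 1.39 ± 0.35 (adjusted p = 0.0087), which did not pass within the GC arrays (0.74, adjusted p = 0.466) or with the 3' over 5' ratio as a covariate (1.12, adjusted p = 0.0566).

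RALFL24 (AT3G23805) had the tightest stem values of the 8 on the log2 scale. Its signals were 330.2, 322, 355 and 331 in stem, 174, 190.0, 233 and 265 in flower, and 135, 125 and 113 in leaf. The 3 tissues did not overlap. Means were 334 ± 14.2 in stem (SD, n = 4), 215 ± 41.3 in flower (n = 4) and 125 ± 10.9 in leaf (n = 3). Stem exceeded leaf by a log2 difference of 1.45 ± 0.15 (SE, adjusted p = 2.81e-05) and flower exceeded leaf by 0.80 ± 0.15 (adjusted p = 0.00177). Flower was below stem by -0.65 ± 0.14 (adjusted p = 0.00339). Flower against leaf did not pass within the GC arrays (0.43, adjusted p = 0.241), nor flower against stem within the GH arrays (-0.46, adjusted p = 0.121).

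RALFL32 (AT4G14010) had signals of 153, 174, 194 and 139 in stem, 129.6, 127, 136 and 94.0 in flower, and 44.0, 28.0 and 31.2 in leaf. No array of one tissue overlapped another tissue, and the leaf array GH 1 was the only one of the 11 under the limit. Stem averaged 165 ± 24.1 (SD, n = 4), flower 122 ± 18.8 (n = 4) and leaf 34.4 ± 8.47 (n = 3). The log2 difference was 1.80 ± 0.20 (SE) for flower over leaf (adjusted p = 3.6e-05) and 2.25 ± 0.20 for stem over leaf (adjusted p = 8.27e-06), and both passed under every alternative run, at 1.55 to 1.98 and 1.89 to 2.48. Flower and stem did not pass (-0.44 ± 0.19, adjusted p = 0.0753), with a 95% interval of -0.85 to -0.04. The stem array GH 1, the one with the high 3' over 5' ratio, gave the highest RALFL32 signal, and without it stem over leaf was 2.10 (adjusted p = 2.63e-05). With quantile normalization (-0.55, adjusted p = 0.0337), centring on the 75th percentile (-0.59, adjusted p = 0.0264) or the 3' over 5' covariate (-0.47, adjusted p = 0.0293), flower minus stem did pass. Stem GH 1 also gave the highest signal of the 11 arrays for RALFL22 and RALFL24 and the lowest for RALFL34. For stem minus leaf, leaving out 1 array at a time gave 3.16 to 3.60 for RALFL22 and 1.36 to 1.62 for RALFL24. For RALFL34 it gave -0.92 to -0.75.

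Among all probe sets, 8.25% had every stem array above every leaf and flower array, as RALFL22, RALFL24 and RALFL32 did, and 2.40% had stem above flower and flower above leaf with no overlap, as RALFL24 and RALFL32 did. Secondary wall markers were also highest in stem: the summed signal of 3 measured genes of 8 listed was 735 to 1637 in stem against 71.4 to 92.2 in leaf and 78.2 to 112 in flower. Stem was higher than leaf for 3 of 3 (17.9% of all probe sets), and flower was lower than stem for 3 of 3 (15.4%). Flower against leaf passed for 0 of 3, where 21.3% of all probe sets were called higher and 14.4% lower. IRX15, 1 of the 3, met the filter through its 4 stem arrays alone, so its stem difference followed from it. The part of the secondary wall markers in the stem signals of the RALFL genes was not tested.

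RALFL34 had the opposite order, with stem lowest. RALFL34 (AT5G67070) encodes a peptide that acts through the receptor kinase THESEUS1 and is known from lateral root initiation. Its signals were 506, 379, 359 and 478 in stem (GC 1, GC 2, GH 1, GH 2), 734, 743, 749.8 and 644 in flower, and 769, 762 and 733 in leaf. Every stem array was below every leaf and flower array, and leaf and flower overlapped. Stem averaged 431 ± 72.5 (SD, n = 4), flower 718 ± 49.4 (n = 4) and leaf 755 ± 18.8 (n = 3). Stem was below leaf by a log2 difference of -0.84 ± 0.14 (SE, adjusted p = 0.000757), which within the GC arrays was -0.81 and did not pass (adjusted p = 0.0562). Flower exceeded stem by 0.75 ± 0.13 (adjusted p = 0.000891). Flower minus leaf was -0.09 ± 0.14 (adjusted p = 0.681), with a 95% interval of -0.40 to 0.23, and its sign turned with quantile normalization (0.14). Over all probe sets, 9.95% had every stem array below every leaf and flower array. Leaf photosynthesis markers (3 measured of 7 listed) summed to 2542 to 4132 on flower arrays, 7053 to 10138 on stem arrays and 13410 to 14422 on leaf arrays. The part of photosynthetic tissue in the RALFL34 signals was not tested.

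RALFL33 (AT4G15800) was higher in stem than in leaf and flower, by calls that many of the alternatives ended. It encodes a peptide that binds FERONIA and takes part in immune signalling. Its signals were 444, 559, 506 and 356 in stem, 139, 323, 356 and 221 in flower, and 370.1, 162 and 192 in leaf. All 3 tissues overlapped. Stem overlapped the others through its lowest array, GH 2 (356.3), which lay under leaf GC 1 and narrowly under flower GH 1 (356.46). Stem averaged 466 ± 87.2 (SD, n = 4), flower 259.9 ± 99.2 (n = 4) and leaf 241 ± 113 (n = 3). Stem was above leaf by a log2 difference of 0.99 ± 0.34 (SE, adjusted p = 0.0369) and flower was below stem by -0.92 ± 0.31 (adjusted p = 0.0355). Stem against leaf was lost in 10 of 24 alternatives, with an adjusted p up to 0.568, and flower against stem in 9 of 24, up to 0.187. Among the arrays whose loss ended a call were leaf GH 1 (stem against leaf, adjusted p = 0.141), leaf GH 2 (0.107), flower GC 1 (flower against stem, -0.57, adjusted p = 0.0918) and flower GH 2 (0.0724). Each of stem GC 1, stem GC 2 and stem GH 1 ended both calls when left out, with adjusted p-values of 0.051, 0.0761 and 0.0892 for stem against leaf. With the 3' over 5' covariate, stem against leaf did not pass (0.77, adjusted p = 0.151). Flower minus leaf was 0.08 ± 0.34 (adjusted p = 0.885).

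RALFL31 (AT4G13950) passed the test in no tissue comparison. RALFL31 and RALFL32 both lie on chromosome 4 in TAIR10.1, with 12 genes between them. Its signals were 95.3, 91.7, 105 and 81.5 in flower, 87.1, 67.9, 99.1 and 84.6 in stem, and 69.3, 57.7 and 72.6 in leaf. Each flower array was above each leaf array, and stem overlapped both. The log2 difference was 0.50 ± 0.19 (SE) for flower minus leaf (adjusted p = 0.0562), 0.35 ± 0.19 for stem minus leaf (adjusted p = 0.159) and 0.15 ± 0.17 for flower minus stem (adjusted p = 0.522). Flower minus leaf passed without flower GH 2 (0.60, adjusted p = 0.0466), without stem GH 1 (0.49, adjusted p = 0.0465) and with a stricter filter on low signals (adjusted p = 0.047).

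**Figure D2:**
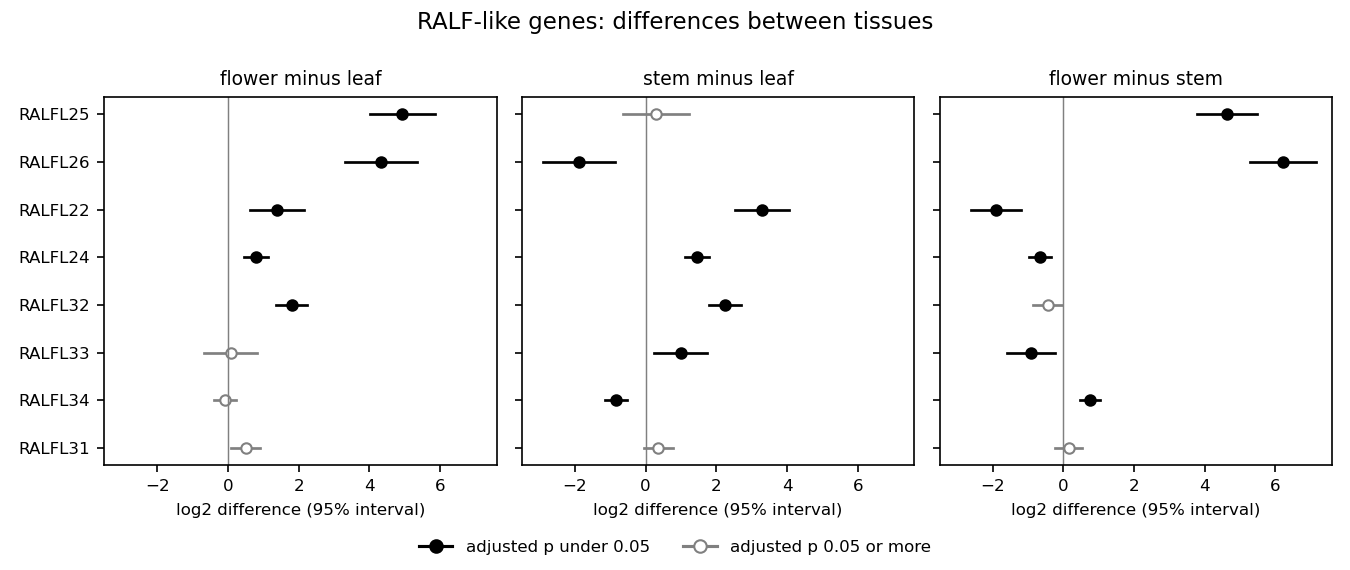
Log2 differences between tissues for the 8 RALFL genes from the linear model, with 95% intervals, filled where the adjusted p is under 0.05. Flower minus leaf is filled for 5 genes, stem minus leaf for 6 and flower minus stem for 6, and RALFL25 and RALFL26 carry the differences farthest from 0 in flower minus stem (4.64 and 6.22).

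Counted over the 8 genes, flower was higher than leaf for 5 (RALFL22, RALFL24, RALFL25, RALFL26 and RALFL32) and lower for 0, where 21.3% of all 15718 probe sets were called higher and 14.4% lower. Stem was higher than leaf for 4 (RALFL22, RALFL24, RALFL32 and RALFL33) and lower for 2 (RALFL26 and RALFL34), beside 17.9% and 21.6% of all probe sets. Flower was higher than stem for 3 (RALFL25, RALFL26 and RALFL34) and lower for 3 (RALFL22, RALFL24 and RALFL33), beside 25.5% and 15.4%. Since RALFL25 and RALFL26 entered through flower alone, these counts are a description and nothing is read from their totals.

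The 3 RALFL probe sets that missed the rule stayed between signals of 0.401 and 38.6. RALFL18 (AT2G33130) passed the limit on a single array, flower GC 2, at 38.6, while RALFL27 (AT3G29780) and RALFL28 (AT4G11510) passed it on 0 arrays. The margin around the rule was wide: the third-highest of the 11 signals, on which the rule turns, was 95.3 for RALFL31, the lowest inside it, and 12.9 for RALFL28, the highest outside it. Of those that met the rule, RALFL22, RALFL24, RALFL31, RALFL33 and RALFL34 were above the limit on all 11 arrays, RALFL32 on 10, and RALFL25 and RALFL26 on 4.

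The difference between GH and GC arrays passed the test for 0 of the 8 genes. With tissue as a covariate, GH minus GC ran from -0.61 ± 0.34 (SE) for RALFL25 (adjusted p = 0.562) to 0.22 for RALFL26, and 0 of 8 were called by limma, with 0 of 8 at an unadjusted p under 0.05 and 10.3% of all probe sets at that level. Among all probe sets 0.00636% were called, which is 1 probe set. Within a tissue, 0 of 8 were called in leaf (0.235% of all probe sets), flower (0.0254%) or stem (0.0827%). At an unadjusted p under 0.05 stood RALFL33 in leaf (-1.07 ± 0.47, unadjusted p = 0.0461, adjusted p = 0.505), where a single GC array was measured, and RALFL24 in flower (0.45 ± 0.17, unadjusted p = 0.0243, adjusted p = 0.961). Stem had 0 of 8 at that level. The interaction, GH minus GC in flower less the same in stem, ran from -1.03 to 0.64 over the 8 genes and was called for 0 (0 at an unadjusted p under 0.05), with 0.00% of all probe sets called and 4.84% at an unadjusted p under 0.05. Intervals were wide for the dim signals: RALFL26 in stem was 0.84 with a 95% interval of -0.50 to 2.19.

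**Figure D3:**
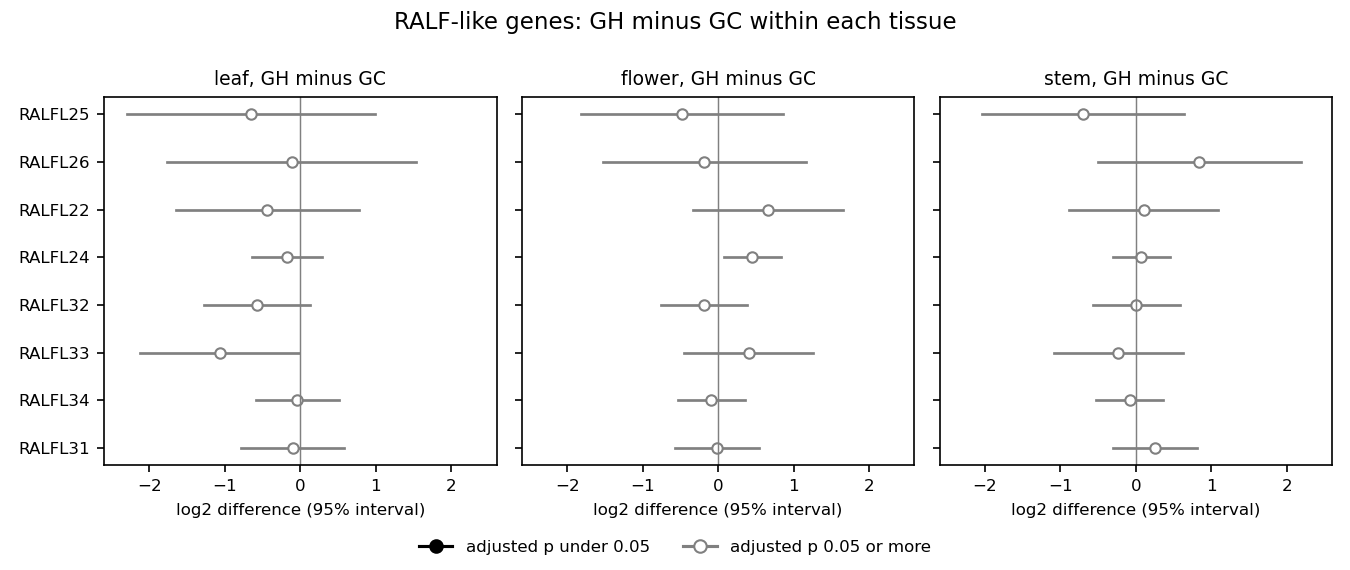
Log2 difference of GH minus GC arrays within leaf, flower and stem for the 8 RALFL genes, with 95% intervals, all open because no adjusted p is under 0.05. Estimates run from -1.07 to 0.84, and leaf rests on a single GC array.

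The genes whose log2 signal followed a RALFL gene most closely were ranked over the 8583 named probe sets that were kept. The measure was Pearson's r over the 11 arrays, which fall into the same 3 tissues for every gene, and it is given as a description. RALFL32 was closest to AT3G48970 (r = 0.977, means of 26.1 in leaf, 130 in flower and 252 in stem), to GLC (GLAUCE, r = 0.975) and to LUP5 (r = 0.974). The means of all 3 were lowest in leaf and highest in stem, as those of RALFL32 were. RALFL22 was closest to AT3G59350 (0.988), AT1G69840 (0.987) and the expansin-like gene EXLA1 (0.981), and RALFL24 to EXLA1 (0.983), ACT11 (0.982) and AT1G62480 (0.981). EXLA1 thus stood in the closest 3 of both. RALFL25 was closest to AT5G24240 (0.990), AT2G47050 (0.990) and AT3G61160 (0.989), and RALFL26 to AT4G23680 (0.985), AT4G36180 (0.984) and AT2G34810 (0.980). RALFL34 was closest to AT3G18250 (0.975), AT1G48650 (0.971) and AT3G57470 (0.965). RALFL33 was closest to AT1G50040 (0.949), AT4G31000 (0.926) and AT1G21370 (0.925). The genes closest to RALFL31, which passed no tissue comparison, are not given.

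Receptor kinases on a list of 17 CrRLK1L loci were read beside the peptides. Of these 12 were on named probe sets and 9 were kept. FER, which encodes the RALF receptor FERONIA, was above the limit on all arrays, with means of 562 ± 56.5 in leaf (SD, n = 3), 435 ± 50.2 in flower (n = 4) and 744 ± 185 in stem (n = 4), where the array GH 1 was lowest at 472. It was lower in flower than in stem by a log2 difference of -0.74 ± 0.19 (SE, adjusted p = 0.00787), while flower minus leaf (-0.39, adjusted p = 0.156) and stem minus leaf (0.35, adjusted p = 0.201) did not pass. THE1, which encodes the RALFL34 receptor THESEUS1, had its highest mean in stem, where RALFL34 had its lowest. THE1 means were 76.2 ± 32.5 in leaf, 195 ± 75.4 in flower and 353 ± 54.8 in stem. Stem was above leaf by 2.28 ± 0.35 (adjusted p = 0.000334) and flower below stem by -0.94 ± 0.32 (adjusted p = 0.0331). THE1 in flower was above leaf by 1.34 ± 0.35 (adjusted p = 0.0103), with overlapping arrays.

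Some receptor loci were above the limit in flower alone, as RALFL25 and RALFL26 were. ANX2, one of the ANXUR receptor kinases of pollen tubes, had a flower mean of 41.6 ± 4.31 (SD, n = 4). By geometric means it was at least 1.47-fold higher in flower than in leaf (adjusted p = 0.0302) and stem (adjusted p = 0.00219). AT4G39110 had a flower mean of 73.4 ± 6.18 and was, by geometric means, at least 2.61-fold higher in flower than in leaf (adjusted p = 0.000858) and stem (adjusted p = 0.00295). Both met the filter through the 4 flower arrays alone, so a flower difference followed from it, and ANX1 did not pass the limit on any array (flower mean 16.2). In the other direction, AT5G39020 was under the limit on every flower array and at least 1.52-fold lower there than in leaf (adjusted p = 0.00454). It met the filter without any flower array, so a low flower signal followed from that. AT2G23200 was lower in flower than in leaf by -1.12 ± 0.31 (adjusted p = 0.0148). Over the 9 kept loci, flower was higher than leaf for 4 and lower for 3 (21.3% and 14.4% of all probe sets), and stem was higher than leaf for 2 and lower for 0 (17.9% and 21.6%). Flower was higher than stem for 2 and lower for 5 (25.5% and 15.4%), and those 2 were ANX2 and AT4G39110, which also stand among the 4. The median log2 difference of the 9 loci was 0.08, 0.35 and -0.77 in that order, beside 0.16, -0.07 and 0.17 over all probe sets. AT5G39020 and AT5G39030 stand among both the 3 and the 5 lower in flower. Both met the filter through leaf and stem arrays alone. Since members entered through the tissues where they were high, nothing is read from these counts and medians.

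Among 11 loci listed as leucine-rich repeat extensins, 8 were measured and 6 kept. Flower was higher than leaf for 3 and lower for 0 (21.3% and 14.4% of all probe sets), stem higher than leaf for 0 and lower for 1 (17.9% and 21.6%), and flower higher than stem for 2 and lower for 0 (25.5% and 15.4%). The median log2 differences were 1.41, -0.07 and 1.16 in that order, beside 0.16, -0.07 and 0.17 over all probe sets. AT1G49490 had a flower mean of 123 ± 35.01 (SD, n = 4) and was at least 4.26-fold higher there than in stem (adjusted p = 0.000516), and was above leaf by a log2 difference of 2.41 ± 0.69 (adjusted p = 0.0173). AT3G19020 had a flower mean of 89.5 ± 10.4 and was at least 3.17-fold higher there than in leaf (adjusted p = 0.000951) and in stem (adjusted p = 0.00434). AT5G25550, at 45.7 ± 14.2 in flower, was at least 1.57-fold higher than in leaf (adjusted p = 0.00935). AT3G19020 and AT5G25550, 2 of the 3 higher in flower than in leaf, met the filter through the 4 flower arrays alone. AT1G49490 was above the limit on 5 arrays, those of flower and leaf GH 2 (34.7), and would not have met the filter without flower. For that reason nothing is read from these counts. Among the loci above the limit in every tissue, AT4G18670 was lower in stem than in leaf by -0.74 ± 0.17 (adjusted p = 0.00486). AT3G24480 and AT2G15880 did not pass in any tissue comparison, with means of 145 and 41.5 in leaf, 89.0 and 48.4 in flower, and 113 and 47.2 in stem.

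**Figure D4:**
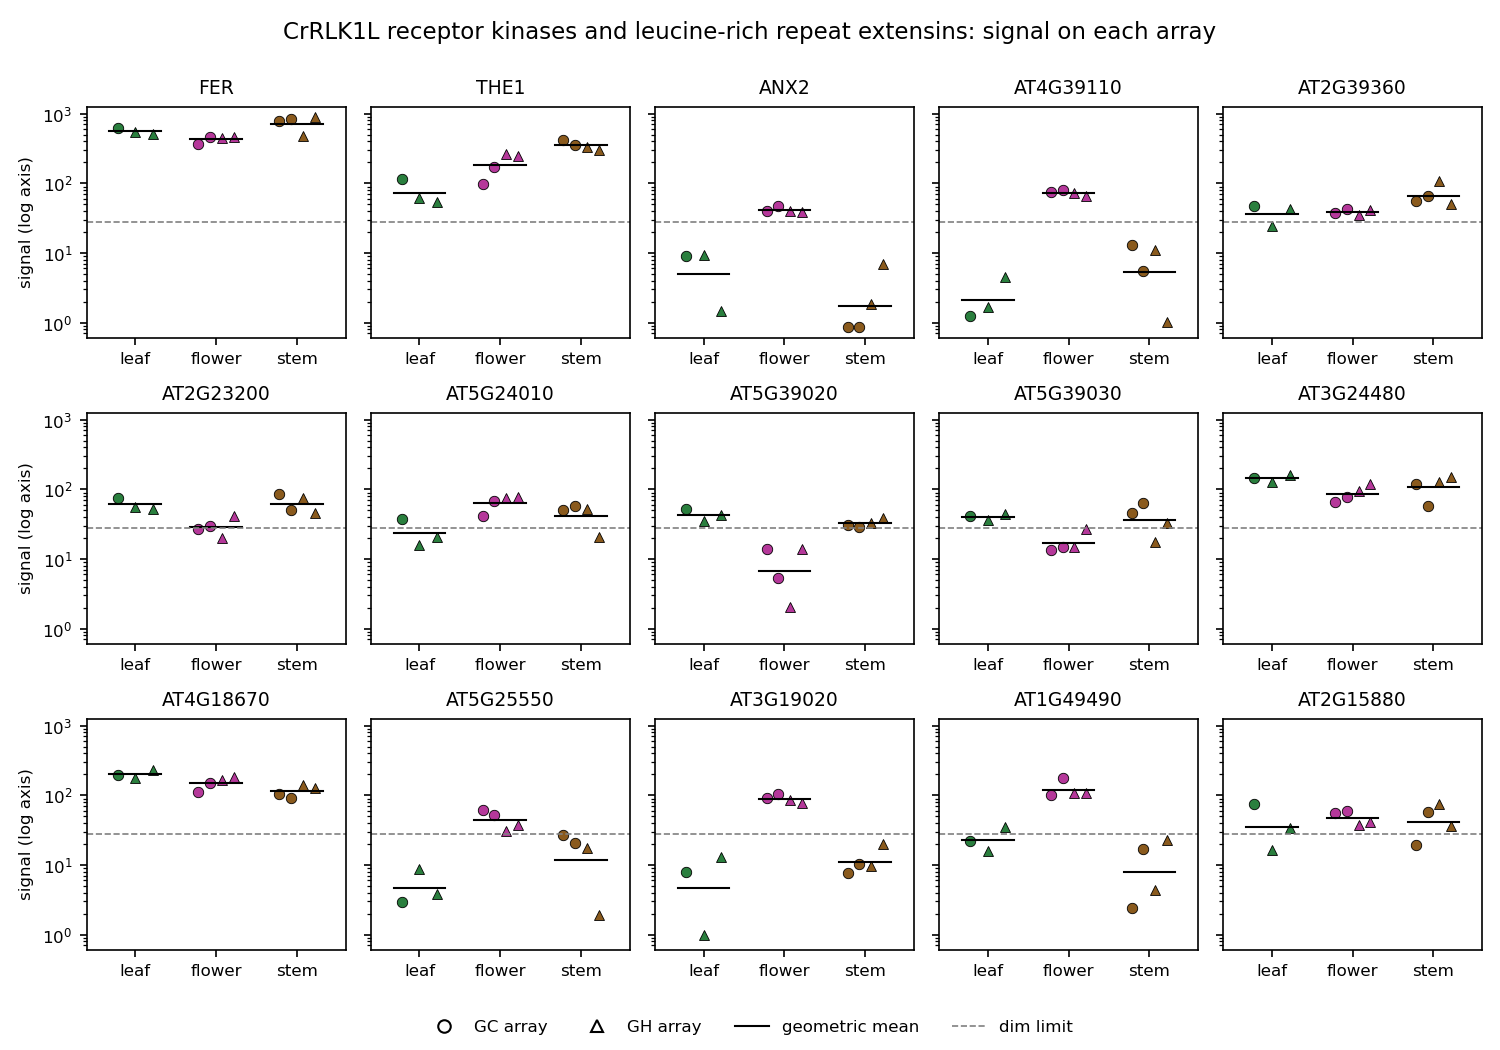
Deposited signal (log axis) of the kept probe sets on the lists of CrRLK1L receptor kinases and leucine-rich repeat extensins on each array, with points by tissue and code, a bar at each tissue's geometric mean and a dashed line at the limit of 28.1. FER and THE1 have their highest arithmetic means in stem (744 and 353), and ANX2, AT4G39110, AT3G19020 and AT5G25550 pass the limit in flower only.

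Of 4 GPI-anchored co-receptor loci listed, 0 were on named probe sets and they were not analysed here. Of 14 loci listed as acting downstream of the receptors or in peptide processing, 3 were measured, and flower was higher than leaf for 1 (21.3% of all probe sets), stem higher than leaf for 2 (17.9%) and flower higher than stem for 0 (25.5%), with 0 lower in each (14.4%, 21.6% and 15.4%). S1P, the subtilase that cleaves some RALF precursors, had means of 69.2 in leaf, 74.7 in flower and 71.7 in stem and passed in no comparison (adjusted p = 0.712 to 0.95). CML38, a calmodulin-like protein gene, was higher in stem than in leaf by a log2 difference of 1.61 ± 0.53 (SE, adjusted p = 0.03). AT2G41970 was at least 1.17-fold higher in flower than in leaf (adjusted p = 0.0073) and was called higher in stem than in leaf (adjusted p = 0.0196) with a bound on the fold under 1. It was above the limit on 3 arrays only, flower GC 2, flower GH 2 and stem GH 2 (28.284). It thus met the filter without any leaf array, and a low leaf signal followed from that. Since it is in both counts of calls against leaf, nothing is read from them. As a set of other secreted peptides, 6 CLE genes were measured and 2 kept, of which CLE44 was higher in flower than in stem by 0.46 ± 0.17 (adjusted p = 0.0428) and CLE41 did not pass in any tissue comparison. Of 5 root hair markers 2 were measured, with summed signals of 26.3 to 80.4 in stem, 23.2 to 28.8 in flower and 10.3 to 32.5 in leaf. EXPA7 passed the limit on 2 arrays and EXPA18 on 0.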

How the data were processed

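RNA of 11 samples was measured on ATH1 arrays. The deposited intensity values are linear MAS5 signals, 1 for each probe set, a tool named in the submitters' processing notes. Not given in the sources used here are the scaling target, the MAS5 version and any detection calls. The mean of each array without its lowest and highest 2% of values was 99.96 to 99.97. The number of arrays limits the precision.

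The deposited signals were taken to log2. Probe sets with 3 or more arrays above 28.1, the 40th percentile of all values, were kept. Linear models were fitted over all 15718 kept probe sets with limma 3.58.1 in R 4.3.3 (its functions lmFit and eBayes, the variance allowed to follow the mean). P-values were adjusted by Benjamini-Hochberg, and 0.05 was the threshold for a call. Tissue comparisons had the title code as a covariate, and GH against GC had tissue. Comparisons within tissues used 1 mean per tissue and code. The models were tested on simulated data. A tissue under 28.1 on all its arrays gives a bound on the fold, against the higher of 28.1 and each array's value. These bounds compare geometric means, while the means printed with an SD are arithmetic. Errors are SD of signals and SE of log2 differences. Alternatives changed the normalization, centring, filter, pseudocount, floor, trend, covariate, replicate block and arrays used. The 3' over 5' covariate was chosen after seeing the data.

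Each RALFL gene is described, and up to 6 kept loci of each pathway list with the lowest adjusted p are named. Of the RALFL probe sets, 10 were matched to the RefSeq table of TAIR10.1 by gene ID and 1 by symbol. That table names 34 RALF family genes. Loci without a symbol in the annotation are given by their ID. All 11 probe set names lack the suffixes that mark shared transcripts. The genes and lists were chosen with earlier results of these data known. No sequence is printed.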

Additional observations from a re-analysis of the deposited data

Results flagged for a closer look

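A flower array stood apart from the other 3 for 3 genes, by a gap to its neighbour over the whole range above 0.829, Dixon's 95% critical value for 4 arrays. Each of 22 sets of signals was checked, and chance alone gives about 1 in 20. RALFL22 on flower GC 1 had a signal of 69.99 against 183 to 205 on the other flower arrays (gap over range 0.834), and without that array flower minus leaf was 1.73 on the log2 scale (adjusted p = 0.000226) and flower minus stem was -1.52 (adjusted p = 0.00044). RALFL25 on flower GC 2 had a signal of 403.7 against 218 to 245 (gap over range 0.857), and flower minus leaf was 4.84 without it (adjusted p = 5.05e-05). RALFL34 on flower GH 2 had a signal of 644.3 against 734 to 749.8 (gap over range 0.849), and flower minus stem was 0.79 without it (adjusted p = 0.00192).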

How the results depend on the processing

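Over 24 alternatives for each tissue comparison, RALFL25, RALFL26 and RALFL32 kept their calls of flower over leaf, RALFL22, RALFL24 and RALFL32 those of stem over leaf, and RALFL22, RALFL25, RALFL26 and RALFL34 those between flower and stem. RALFL25 and RALFL26 met the rule through flower alone, so their calls of flower over leaf and stem followed from it. That these calls were kept is no support for them, and the counts of RALFL genes that follow include them. Within the GC arrays, 3 RALFL genes were called for flower against leaf (5 with all arrays) and 3 for stem against leaf (6 with all arrays), from fewer arrays. Over all probe sets the calls for flower against leaf, stem against leaf and flower against stem were 2612, 3027 and 4257 within GC and 3768, 4209 and 2976 within GH, against 5617, 6222 and 6421 with all arrays. Leaving out each array in turn called 5 to 6 RALFL genes in each tissue comparison and 0 for GH against GC. The same fits called 4407 to 6288 of all probe sets for flower against leaf and 4923 to 6247 for stem against leaf. They called 5368 to 6579 for flower against stem and 0 to 13 for GH against GC. With a replicate block the counts were 5, 5, 6 and 0 RALFL genes, and 5491, 6067, 6356 and 0 of all probe sets. Deviations of same-numbered arrays correlated at -0.066 to 0.07, so the numbers were not taken as pairs. Stem below leaf for RALFL26 was also lost within GC (adjusted p = 0.0577), within GH (0.116) and on the compared tissues alone (0.0844).

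Signs turned only for differences that did not pass, and the cause was not tested. Flower minus leaf of RALFL34 was 0.138 with quantile normalization and 0.035 with the 3' over 5' covariate, and that of RALFL33 was -0.051 with centring, -0.805 within GC, -0.166 with the covariate and -0.199 to 0.514 with 1 array left out. Stem minus leaf of RALFL25 was -0.03 with the floor and -0.139 to 0.72 with 1 array left out, and flower minus stem of RALFL31 was -0.075 with quantile normalization. GH minus GC of RALFL26 was -0.005 with the pseudocount of 8.86, -0.069 with the floor, -0.046 with the covariate and -0.003 to 0.389 with 1 array left out. GH minus GC with 1 array left out was -0.463 to 0.088 for RALFL33, -0.114 to 0.382 for RALFL22 and -0.015 to 0.127 for RALFL31, and it was -0.135 for RALFL22 without the covariate and -0.017 for RALFL31 with the 3' over 5' covariate.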
